A study of Mus musculus with 4 samples.

Results

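The genes described here are those of cholesterol synthesis, sterol transport and the control of sterol regulatory element-binding protein 2, abbreviated SREBP2. They were taken from a list of 29 genes: 8 early mevalonate enzymes, 3 enzymes that make or close squalene, 8 late sterol enzymes and 10 genes of transport and control. Of these, 28 had a named probe set and passed the filter on dim genes, among 10788 genes compared in all. Acat2 was not analysed here. The rule lists the genes by function, but they were chosen with earlier results of these data known. The probe set of each gene and the filter on dim genes rest on measured signals.

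The samples were cultures of differentiating 3T3-L1 cells, a mouse fibroblast line that becomes fat cells after induction with insulin, dexamethasone and isobutylmethylxanthine. Preadipocytes in 1 culture received siRNA against aof2, the former name of Kdm1a, which encodes the histone demethylase LSD1. In another they received siRNA against rfk, which encodes riboflavin kinase, the enzyme that makes the flavin cofactor FMN. Another culture had tranylcypromine, which inhibits monoamine oxidases and LSD1, in its induction medium, and the culture they were compared with had the control siRNA siGL3. The siRNAs were given 24 h before induction and RNA was taken 24 h after it, and all 4 cultures grew in 25 mM glucose with 10% serum. For the tranylcypromine culture the labels name no siRNA, so drug and transfection cannot be told apart in its comparisons. Each culture was measured on 1 Affymetrix array, so no test between conditions was possible, and every value is a single measurement without an error from replicates.

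Cells make cholesterol from acetyl groups through mevalonate, isoprenoid phosphates, squalene and lanosterol. When sterol in the endoplasmic reticulum is low, the escort protein SCAP carries SREBP2 to the Golgi, where it is cut, and its freed part switches on the genes of the pathway. When sterol is plentiful, the INSIG proteins hold SCAP back, while the liver X receptors raise genes that export sterol. In fat cells much of the cell's cholesterol is held at the lipid droplet and in the plasma membrane.

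Each siRNA's target was low on its own array. Kdm1a had signals of 681 (aof2 siRNA), 3471 (rfk siRNA), 3054 (tranylcypromine) and 3494 (control siRNA). For Rfk they were 2018, 573, 2334 and 2122 in the same order. Fibroblast markers were bright on all arrays, with summed signals over 7 genes of 89068 to 93671 on the treated arrays and 87268 with control siRNA, although Col1a1 stood at log2 differences of -0.55, -1.01 and -0.98 on the aof2 siRNA, rfk siRNA and tranylcypromine arrays. Of the 9 adipocyte markers 8 were named and 6 passed the filter, all but Adipoq and Cd36, and the summed signal of the 8 was 25723 with aof2 siRNA, 25561 with rfk siRNA and 23046 with tranylcypromine, against 26763 with control siRNA. Most of that sum was Cebpb, an early regulator of differentiation, which varied little. Fabp4, which encodes a lipid carrier typical of fat cells, had signals of 1301 with aof2 siRNA, 791 with rfk siRNA and 1093 with tranylcypromine, against 2463 with control siRNA, and was thus more than 1.5-fold lower on each treated array. Pparg, the main regulator of fat cell differentiation, stood at -0.12, -0.77 and -0.44 in the same order. Other adipocyte markers went the other way on some arrays, with Cebpa at 0.56, 0.03 and 0.28 and Cebpd at 0.33, 0.27 and -0.31. The medians over the 6 markers were -0.02, 0.02 and -0.38. Above control were 3, 4 and 1 of the 6, beside 49.3%, 48.5% and 48% of compared genes. Macrophage, endothelial, epithelial, hepatocyte and muscle lists had summed signals of 37.7 to 624, with 5 of their 19 genes (Csf1r, Cd14, Kdr, Epcam and Des) above the filter. Because signals are not comparable between genes, such sums can be compared between arrays but not between lists. The part of all these markers in the sterol results was not tested, and in such bulk cultures fewer cells of a type and less RNA per cell cannot be told apart.

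Signals below are MAS5 signals, a linear intensity scaled array by array, and levels can be compared between arrays but not between genes. The threshold for a call, higher or lower, was a 1.5-fold difference between arrays, or 0.58 on the log2 scale. The spiked hybridisation controls, 18 probe sets, gave log2 differences from the control array of -0.26 to 0.21, which is the technical spread of bright signals after hybridisation. The poly-A controls, 24 probe sets added before labelling, differed by means of 0.29 with aof2 siRNA, 0.17 with rfk siRNA and -0.01 with tranylcypromine, and their part in the results below was not tested. Of the 28 members 26 were bright, that is, their geometric mean signal reached 414, the 75th percentile of all probe sets.

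**Figure D1:**
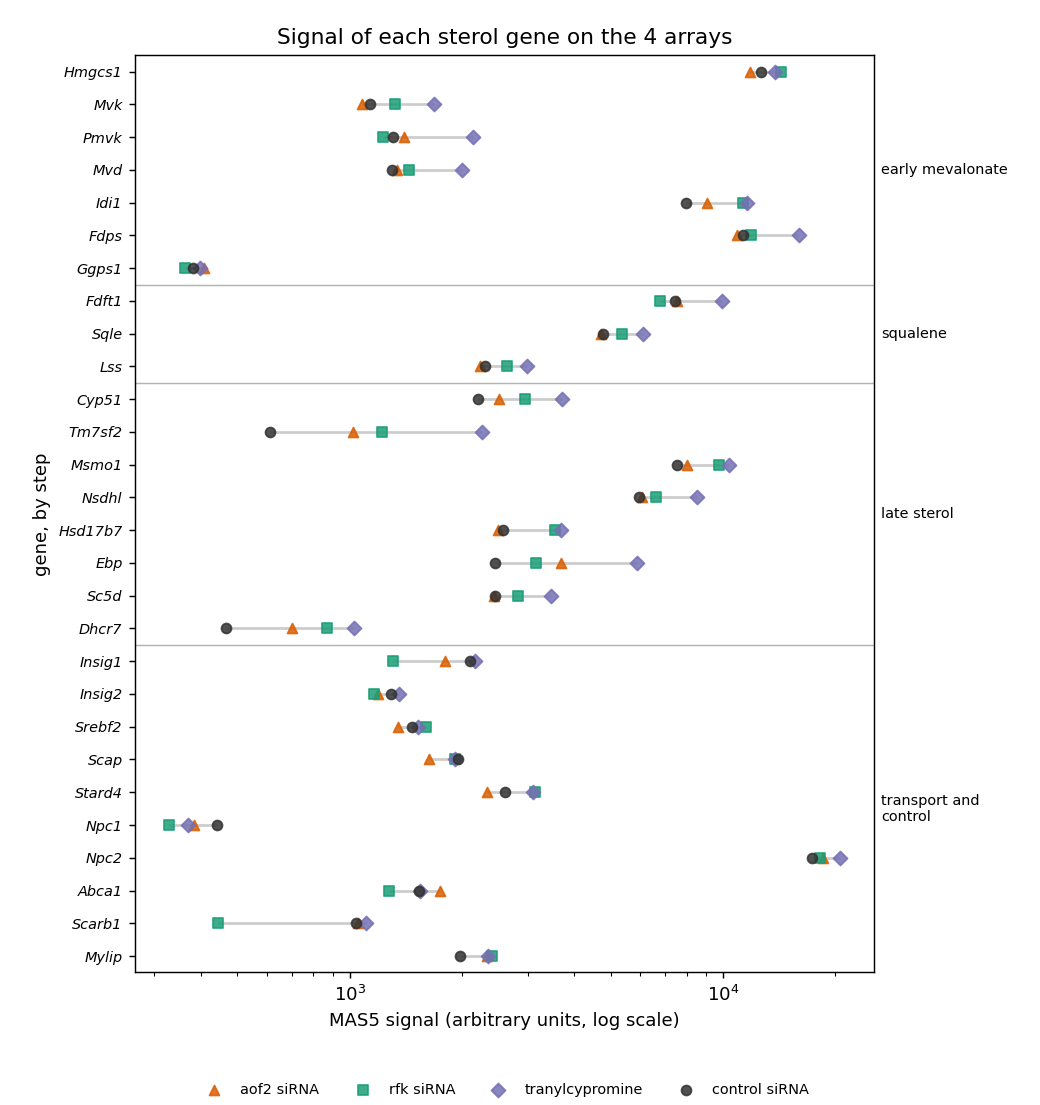
MAS5 signal (log axis) of each of the 28 measured sterol genes on the 4 arrays, 1 point per array, with genes in the order of the pathway and a grey line over their range. Points come from each gene's brightest probe set and are to be compared along a row only. The tranylcypromine point is the rightmost in all 8 late sterol rows.

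With tranylcypromine, genes of all 3 enzyme steps lay above control, and the late sterol enzymes Tm7sf2, Ebp and Dhcr7 lay furthest above it. By their brightest probe sets all 18 measured enzymes were above control, with a median log2 difference of 0.51. So were 8 of the 10 genes of transport and control, whose median was 0.06. Among all compared genes the median was -0.02, and 48% were above control. At least 1.5-fold higher were 6 members, namely Tm7sf2, Ebp, Dhcr7, Cyp51, Pmvk and Mvd, or 6 of 28, against 7.48% of the compared genes and 4% of the bright genes. The first 3 of these were at least 2-fold higher, against 2.23% of the compared genes. At least 1.5-fold lower were 0 members, against 4.77%.

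With rfk siRNA the same steps lay above control by smaller amounts, and the HDL receptor gene Scarb1 and the feedback gene Insig1 lay below it. The median over all 28 members was 0.16, with 19 above control, beside 48.5% of the compared genes. At least 1.5-fold higher were 2 members, Tm7sf2 and Dhcr7, against 3.92% of the compared genes and 1.64% of the bright ones. At least 1.5-fold lower were also 2, Scarb1 and Insig1, against 3.8% and 1.54%.

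With aof2 siRNA the members as a whole lay near control. Their median was 0.02, and 15 of 28 were above control, beside 49.3% of the compared genes. At least 1.5-fold higher were 3 members, Tm7sf2, Ebp and Dhcr7, against 6.26% of the compared genes and 2.98% of the bright ones. Ebp and Dhcr7, with log2 differences of 0.59 each, only just reached the threshold, and 0 members were lower, against 2.88%. With the arrays centred on their medians, 1 member was at least 1.5-fold higher and the median over members was -0.06. Against the mean of the 3 other arrays, instead of the control array alone, the median with aof2 siRNA was -0.19, and Tm7sf2 and Dhcr7 stood at -0.22 and -0.0927. The 3 comparisons share the control array, so that an error of that array would enter each of them in the same direction.

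**Figure D2:**
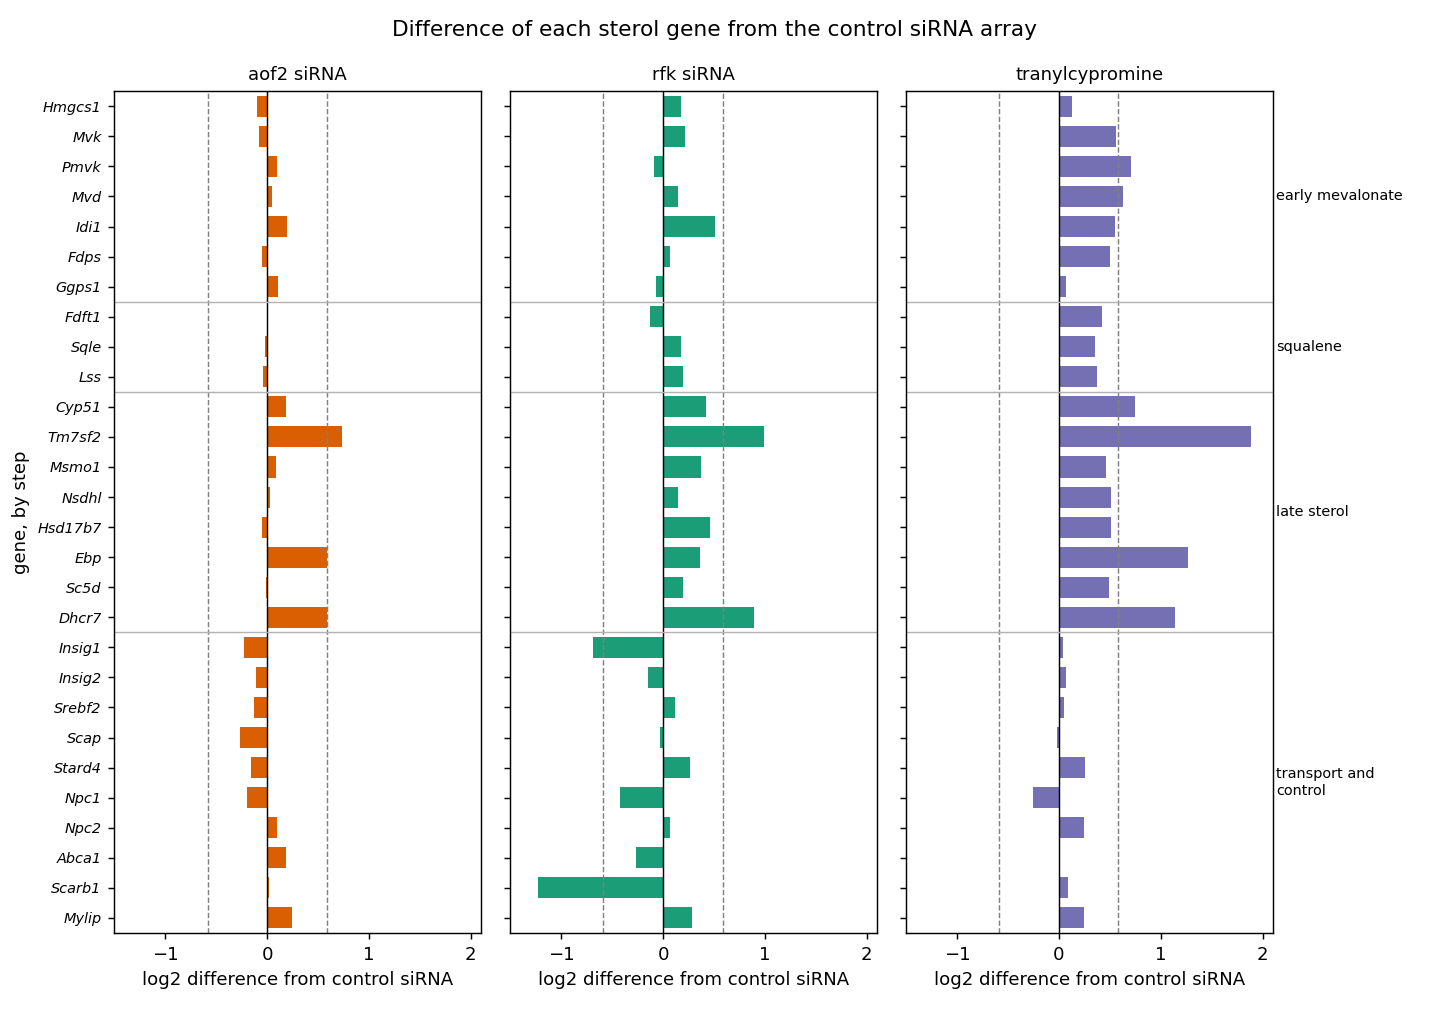
Log2 difference of each sterol gene from the control siRNA array, 1 bar per gene and 1 panel per treated array, with dashed lines at 1.5-fold. With tranylcypromine 6 bars pass the upper line, all of them enzymes, and with rfk siRNA Scarb1 and Insig1 pass the lower one.

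The late sterol enzymes turn lanosterol into cholesterol, and their median log2 differences were 0.13 with aof2 siRNA, 0.39 with rfk siRNA and 0.63 with tranylcypromine. By their brightest probe sets all 8 were above control with rfk siRNA and with tranylcypromine, and 6 of 8 with aof2 siRNA. Tm7sf2 encodes a sterol reductase that acts just after lanosterol demethylation. Its signal was 1019.7 with aof2 siRNA, 1218 with rfk siRNA and 2259 with tranylcypromine, against 613 with control siRNA. The 3 treated arrays thus all lay above control, with folds of 1.66, 1.99 and 3.69, and only 0.343% of compared genes lay as high or higher with tranylcypromine. Lbr, the lamin B receptor, which has the same reductase activity, had log2 differences of -0.44, 0.20 and -0.15 on the aof2 siRNA, rfk siRNA and tranylcypromine arrays.

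Ebp encodes the isomerase that moves a double bond in the sterol ring. It had signals of 3672 with aof2 siRNA, 3159 with rfk siRNA and 5892 with tranylcypromine, against 2448 with control siRNA. The tranylcypromine signal was 2.41-fold that of control, and here the aof2 siRNA array stood second and not the rfk siRNA array. Dhcr7 encodes the reductase of the last step to cholesterol, and its signals were 700.4 with aof2 siRNA, 868 with rfk siRNA and 1029 with tranylcypromine, against 467 with control siRNA. That is 1.86-fold with rfk siRNA and 2.21-fold with tranylcypromine. Tm7sf2, Ebp and Dhcr7 are each measured by 1 probe set, so no further probe set bears on these 3 differences.

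Genes next to these 3 in the RefSeq annotation, chosen after the members' values were seen, differed less with tranylcypromine. Vps51, the nearest protein-coding gene to Tm7sf2, had log2 differences of 0.07, 0.09 and 0.10 on the aof2 siRNA, rfk siRNA and tranylcypromine arrays. Porcn, beside Ebp, had 0.24, -0.03 and 0.28. Nadsyn1, an enzyme gene of NAD synthesis beside Dhcr7, had 0.55, 0.07 and 0.69, so with aof2 siRNA and tranylcypromine it differed in the same direction as Dhcr7, and with rfk siRNA by less. With tranylcypromine Nadsyn1 was itself at least 1.5-fold higher, against 7.48% of compared genes.

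Cyp51, the lanosterol demethylase, had signals of 2507 with aof2 siRNA, 2952 with rfk siRNA and 3707 with tranylcypromine, against 2208 with control siRNA. By its brightest probe set the order over the 4 arrays was that of Tm7sf2 and Dhcr7, with a log2 difference of 0.75 for tranylcypromine. A dimmer probe set was highest with rfk siRNA, at a signal of 1727, beside 1327 with tranylcypromine, while another was highest with tranylcypromine. The probe sets of Cyp51 gave 0.06 to 0.85 with rfk siRNA and 0.47 to 0.75 with tranylcypromine. Msmo1, Nsdhl and Hsd17b7, which take methyl groups off the sterol ring, had log2 differences of 0.46, 0.51 and 0.51 with tranylcypromine and 0.37, 0.15 and 0.46 with rfk siRNA. The probe sets of Hsd17b7 ranged from -0.14 to 0.51 with tranylcypromine. Sc5d, a sterol desaturase, stood at 0.50 with tranylcypromine, 0.20 with rfk siRNA and -0.01 with aof2 siRNA. A dimmer Sc5d probe set gave 0.68, 0.42 and 0.33 in the same order, and another 0.23, 0.51 and 0.09. Its sign with aof2 siRNA thus depends on the probe set.

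The sequences upstream of Ebp, Dhcr7 and Cyp51, 3 of the 4 members furthest above control with tranylcypromine, and of the feedback gene Insig1, lower with rfk siRNA, are shown because SREBP2 acts at the promoters of this pathway together with the factors NF-Y and Sp1. They are the 250 bases before the annotated start, from RefSeq on GRCm38.p6, written 5′ to 3′ on the gene's strand. Capitals mark TCACNNCA, a loose form of the sterol element, the CCAAT box that NF-Y binds and the GC box GGGCGG that Sp1 binds, on either strand. Dhcr7 has 3 annotated windows, and the one with the most matches is shown. The window of Tm7sf2 lies within the annotated span of Vps51 and is not shown.
Ebp, chrX:8193513-8193762, minus strand: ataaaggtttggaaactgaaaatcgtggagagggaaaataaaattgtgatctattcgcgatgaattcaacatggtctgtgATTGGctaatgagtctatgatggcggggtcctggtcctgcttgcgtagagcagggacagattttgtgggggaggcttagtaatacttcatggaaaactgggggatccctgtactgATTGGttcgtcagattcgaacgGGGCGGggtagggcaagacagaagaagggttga
Dhcr7, chr7:143829964-143830213, plus strand: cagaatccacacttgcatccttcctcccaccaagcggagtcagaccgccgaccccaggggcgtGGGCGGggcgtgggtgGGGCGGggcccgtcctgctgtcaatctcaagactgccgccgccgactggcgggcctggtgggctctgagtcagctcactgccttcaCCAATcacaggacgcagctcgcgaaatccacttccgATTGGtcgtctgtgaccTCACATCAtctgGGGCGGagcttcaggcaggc
Cyp51, chr5:4104698-4104947, minus strand: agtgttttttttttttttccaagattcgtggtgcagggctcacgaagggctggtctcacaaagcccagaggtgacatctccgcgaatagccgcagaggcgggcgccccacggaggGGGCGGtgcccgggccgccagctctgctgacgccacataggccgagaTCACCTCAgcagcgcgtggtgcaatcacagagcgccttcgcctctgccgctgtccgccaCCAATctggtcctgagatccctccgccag
Insig1, chr5:28071162-28071411, plus strand: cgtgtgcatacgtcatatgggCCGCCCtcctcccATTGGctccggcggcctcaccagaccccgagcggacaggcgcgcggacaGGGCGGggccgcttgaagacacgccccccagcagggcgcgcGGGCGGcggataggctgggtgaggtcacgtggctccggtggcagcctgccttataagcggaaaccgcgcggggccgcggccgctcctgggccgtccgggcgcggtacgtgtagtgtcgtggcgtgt

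In these windows TCACNNCA was found in Dhcr7, as TCACATCA, and in Cyp51, as TCACCTCA, and it was not found in those of Ebp and Insig1. All 4 held a CCAAT box and a GC box. Promoter windows were at hand for 23 of the 29 listed genes, 29 windows in all. TCACNNCA lay in 10 of these 29 windows (34.5%), against 9.45% of the 11230 windows of compared genes and 11.4% of all 32851 windows. The CCAAT box lay in 69% of member windows, 35.5% of those of compared genes and 33.8% of all. For the GC box these shares were 79.3%, 58.7% and 32.7%. The stricter TCACNCCAC lay in the Hmgcs1 window alone among members, against 0.962% of the windows of compared genes. Neighbouring windows of a gene can overlap, a match is no evidence of binding, and the letters searched were chosen with these sequences in view.

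The early mevalonate enzymes had medians of 0.04 with aof2 siRNA, 0.15 with rfk siRNA and 0.55 with tranylcypromine over 7 genes. Pmvk, which encodes phosphomevalonate kinase, had signals of 1397 with aof2 siRNA, 1228 with rfk siRNA and 2137 with tranylcypromine, against 1304 with control siRNA. The tranylcypromine array stood apart and the other 3 lay close together, and Pmvk is measured by 1 probe set. Mvd, the decarboxylase that follows, had signals of 1339 with aof2 siRNA, 1442 with rfk siRNA and 2006 with tranylcypromine, against 1299 with control siRNA, and a further probe set gave a log2 difference of 0.72 with tranylcypromine, beside 0.63 for this one. Mvk, mevalonate kinase, stood at 0.56 with tranylcypromine by its brightest probe set and at 0.08 by its other.

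Idi1, the isopentenyl diphosphate isomerase, had signals of 9081 with aof2 siRNA, 11337 with rfk siRNA and 11626 with tranylcypromine, against 7958 with control siRNA. The rfk siRNA and tranylcypromine arrays were alike here, at 1.42-fold and 1.46-fold of control. Fdps, which makes farnesyl diphosphate, had signals of 10919.7 with aof2 siRNA, 11880.3 with rfk siRNA and 15998 with tranylcypromine, against 11302 with control siRNA, so that only the tranylcypromine array stood apart. Hmgcs1, which encodes the synthase that makes HMG-CoA at the head of the pathway, varied little, with log2 differences of -0.10, 0.18 and 0.13 on the aof2 siRNA, rfk siRNA and tranylcypromine arrays. Ggps1, which makes geranylgeranyl diphosphate on the branch to protein prenylation, stood at 0.10, -0.07 and 0.07. With tranylcypromine its dimmer probe sets above the filter gave -0.0052, -0.0108 and -0.23, so its sign there depends on the probe set.

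The 3 squalene enzymes had medians of -0.02 with aof2 siRNA, 0.17 with rfk siRNA and 0.38 with tranylcypromine. Fdft1, squalene synthase, had signals of 7517 with aof2 siRNA, 6800.1 with rfk siRNA and 9966 with tranylcypromine, against 7455 with control siRNA. Sqle, the squalene epoxidase, had 4701 with aof2 siRNA, 5374 with rfk siRNA and 6102 with tranylcypromine, against 4765 with control siRNA. Lss, which closes squalene epoxide to lanosterol, had 2236 with aof2 siRNA, 2641 with rfk siRNA and 2992 with tranylcypromine, against 2305 with control siRNA. The tranylcypromine array was highest for each of the 3, and 0 of them reached 1.5-fold. Probe sets of Lss spread from 0.18 to 1.07 with tranylcypromine, and those of Fdft1 from -0.20 to 0.42.

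Of Srebf2 and its regulators Scap, Insig1 and Insig2, 0 were at least 1.5-fold above control on any array. Srebf2, which encodes SREBP2 itself, had signals of 1349 with aof2 siRNA, 1601 with rfk siRNA and 1526 with tranylcypromine, against 1473 with control siRNA. Its dimmer probe set gave log2 differences of 0.36, 0.16 and 0.37 on the aof2 siRNA, rfk siRNA and tranylcypromine arrays, beside -0.13, 0.12 and 0.05 for the brighter one, so the sign with aof2 siRNA depends on the probe set. Scap stood at log2 differences of -0.26, -0.03 and -0.02 on the aof2 siRNA, rfk siRNA and tranylcypromine arrays, and Insig2 at -0.11, -0.15 and 0.07. A dimmer Insig2 probe set gave 0.17, 0.11 and -0.06, and another 0.11, -0.06 and 0.04. The sign for Insig2 thus depends on the probe set. All of these differences were below the threshold.

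Insig1, whose protein retains SCAP and whose gene is itself a known SREBP target, had signals of 1799 with aof2 siRNA, 1310.1 with rfk siRNA and 2169 with tranylcypromine, against 2106 with control siRNA. The rfk siRNA array was thus lowest, with control 1.61-fold above it, while 15 of the 18 enzymes were above control on that array. With tranylcypromine, where all 18 enzymes were above control by their brightest probe sets, Insig1 stood at 0.04. It is measured by 1 probe set.

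Among transport genes the difference of largest size was that of Scarb1, the receptor that takes up cholesterol ester from high-density lipoprotein. Its signals were 1054 with aof2 siRNA, 444 with rfk siRNA and 1104 with tranylcypromine, against 1039 with control siRNA. By this probe set the other arrays lay close together and the rfk siRNA array lay apart, with control 2.34-fold above it, and 0.389% of compared genes lay as low or lower. All its probe sets were low on that array, with log2 differences of -1.30 to -0.81. With tranylcypromine its 2 dimmer probe sets gave 0.61, above the threshold, and 0.34, beside 0.09 for the brightest.

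Stard4, a soluble sterol carrier and known SREBP target, had signals of 2332 with aof2 siRNA, 3134 with rfk siRNA and 3100.0 with tranylcypromine, against 2603 with control siRNA. It was thus above control with rfk siRNA and tranylcypromine, as most enzymes were, and its 3 probe sets gave 0.25 to 0.31 with tranylcypromine. With aof2 siRNA it was below control, while the enzymes had no common direction, with 11 of 18 above control, beside 49.3% of compared genes. Npc1 and Npc2 together move cholesterol out of lysosomes. Npc1 had signals of 384 with aof2 siRNA, 328 with rfk siRNA and 369 with tranylcypromine, against 440.4 with control siRNA, the highest of the 4. By its brightest probe set Npc2 was lowest with control siRNA, and its log2 differences were 0.09, 0.06 and 0.25 on the aof2 siRNA, rfk siRNA and tranylcypromine arrays. Another bright Npc2 probe set gave 0.09, 0.0044 and 0.20. A dimmer one gave 0.31, -0.63 and 0.47, so by it Npc2 was at least 1.5-fold lower with rfk siRNA.

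Abca1, which exports cholesterol, and Mylip, a ubiquitin ligase that marks lipoprotein receptors for breakdown, are known targets of the liver X receptors. Abca1 had signals of 1744 with aof2 siRNA, 1278 with rfk siRNA and 1543 with tranylcypromine, against 1536 with control siRNA. Mylip had 2331 with aof2 siRNA, 2411 with rfk siRNA and 2348 with tranylcypromine, against 1974 with control siRNA. The treated arrays did not order these genes alike, and their log2 differences of -0.26 to 0.29 were all below the threshold.

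**Figure D3:**
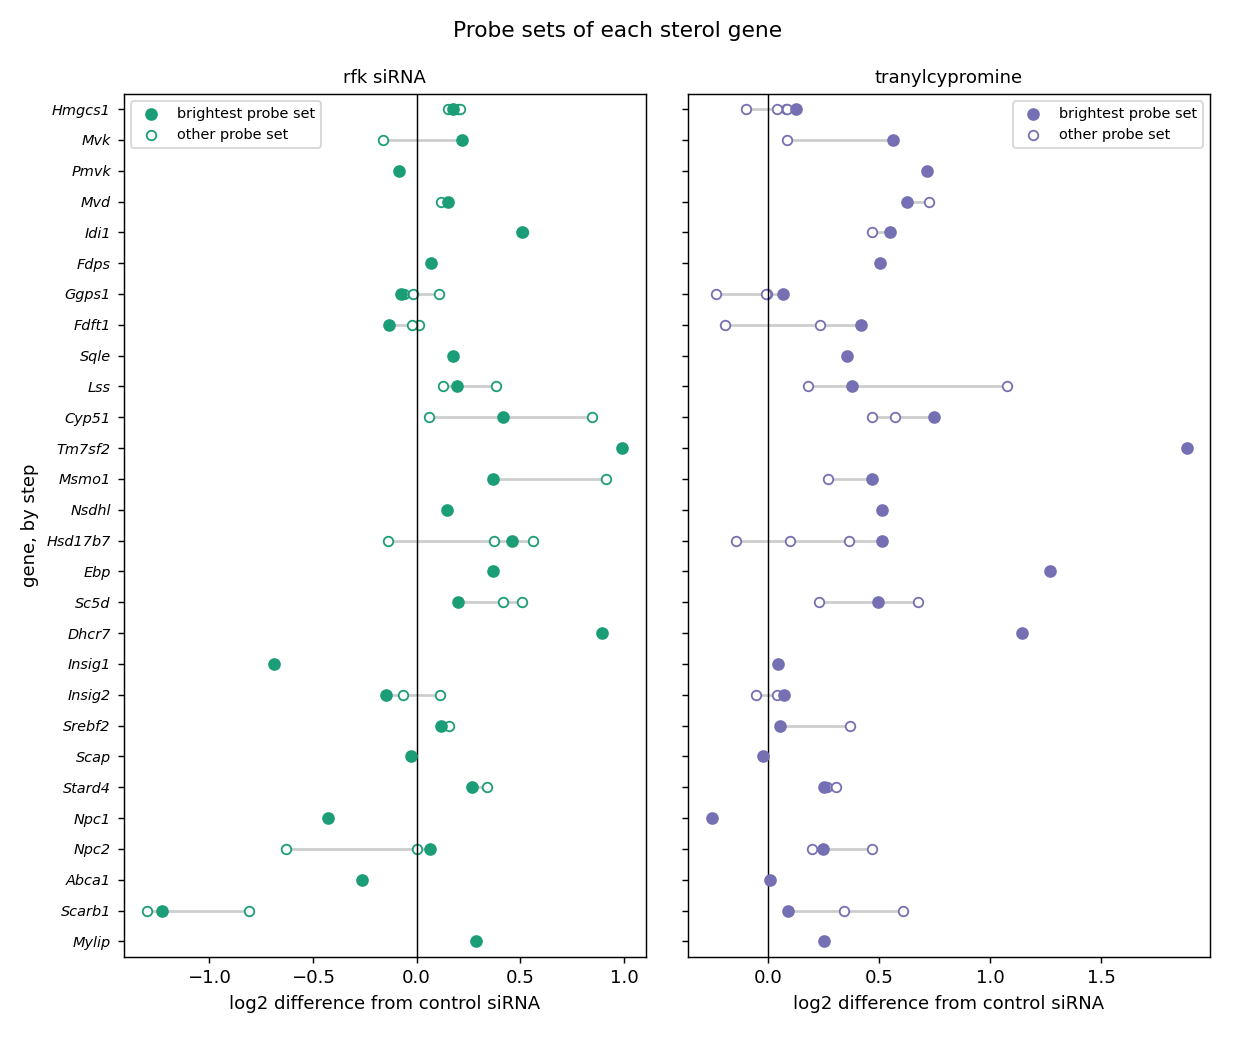
Log2 difference from control siRNA for every probe set above the filter (filled, the brightest, which represents the gene; open, the others), with rfk siRNA on the left and tranylcypromine on the right. Tm7sf2, Ebp, Dhcr7, Pmvk and Insig1 are among the genes with a single point, and all Scarb1 probe sets lie between -1.30 and -0.81 with rfk siRNA.

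Probe sets of 1 gene served as a check within an array. Of the 16 members with several probe sets above the filter, all probe sets had the same sign for 11 with tranylcypromine, 10 with rfk siRNA and 7 with aof2 siRNA. The median range between a gene's probe sets was 0.29, 0.26 and 0.32 on the log2 scale. A log2 difference of a single gene below these ranges lies within the spread between probe sets.

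The order of the arrays does not depend on which is taken as reference. Of the 28 members 20 had their highest signal with tranylcypromine, against 27.7% of compared genes, and 0 had their lowest there, against 28.1%. The highest signal fell on the tranylcypromine array for 5 of 7 early mevalonate genes, 3 of 3 squalene genes, 8 of 8 late sterol genes and 4 of 10 genes of transport and control. All these orders are by the gene's brightest probe set. For Idi1, Fdft1, Cyp51, Msmo1, Hsd17b7 and Sc5d, a dimmer probe set above the filter was highest with rfk siRNA instead. The dimmer probe sets of Insig2 were highest with aof2 siRNA, and a further one of Hsd17b7 was highest with control siRNA. The dimmer probe sets of Mvk, Mvd and Lss were highest with tranylcypromine. For 9 members, 6 of them late sterol enzymes, tranylcypromine was highest and control siRNA lowest, against 10% of compared genes. The lowest signal was on the aof2 siRNA array for 10 members and on the control array for 10, against 22.1% and 22.9% of compared genes.

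Comparisons that leave out the control array were added after the data were seen. Set directly against aof2 siRNA, tranylcypromine gave a median of 0.39 over the members, with 25 of 28 higher, beside 50% of compared genes. At least 1.5-fold higher were 4, namely Tm7sf2, Ebp, Mvk and Pmvk, against 3.54% of compared genes, and 0 were lower, against 4.23%. The late sterol median was 0.56 and that of transport and control 0.17. Set against rfk siRNA, tranylcypromine gave a median of 0.23, with 24 of 28 higher, beside 50.7% of compared genes, with 5 at least 1.5-fold higher, against 7.87%, and 0 lower, against 5.55%. These were Scarb1 at 1.31, Ebp at 0.90, Tm7sf2 at 0.89, Pmvk at 0.80 and Insig1 at 0.73. For Hmgcs1, Idi1, Hsd17b7, Msmo1 and Stard4 these arrays differed by -0.05 to 0.09. Rfk siRNA set against aof2 siRNA gave a median of 0.16, with 18 of 28 higher, beside 48.5% of compared genes, and 0 of them by 1.5-fold, against 3.22% of compared genes. Scarb1, at -1.25, was the 1 member at least 1.5-fold lower, against 6.28%.

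Related genes outside the list were looked at for context. Of 14 genes of SREBP-driven fatty acid synthesis, 12 lay above control with tranylcypromine (median 0.38), beside 48% of compared genes. At least 1.5-fold higher were 3, Scd1, Fasn and Acss2, at 0.62, 0.61 and 0.61, against 7.48% of compared genes. Thrsp, a lipogenic gene, was the 1 gene lower, at -0.88, against 4.77%. With rfk siRNA 11 of the 14 lay above control (median 0.21), beside 48.5% of compared genes. The elongase gene Elovl6, at 0.62, was the 1 gene at least 1.5-fold higher, against 3.92%. The median with aof2 siRNA was 0.03, with 8 above control, beside 49.3% of compared genes. Thrsp, at -1.07, was the 1 gene lower there, against 2.88%.

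Genes of SREBP processing and turnover had medians of -0.0033 with aof2 siRNA, 0.23 with rfk siRNA and -0.03 with tranylcypromine over 8 genes. Within that list Mbtps1, which encodes the first protease that cuts SREBP, stood at -0.37 with tranylcypromine, and Srebf1, which encodes SREBP1, at -0.20. Erlin2, of the complex that removes sterol-sensing proteins, was highest with both siRNAs, at 0.52 with aof2 siRNA and 0.67 with rfk siRNA. The 11 genes of isoprenoid side branches, which lead to dolichol, ubiquinone and prenylated proteins, had medians of -0.03 with aof2 siRNA, -0.10 with rfk siRNA and 0.02 with tranylcypromine. Fntb, a farnesyltransferase subunit, was the 1 gene lower with rfk siRNA, at -0.63, against 3.8% of compared genes. Of the 11, 0 were 1.5-fold higher on any array, against 6.26% (aof2 siRNA), 3.92% (rfk siRNA) and 7.48% (tranylcypromine).

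Abcg1, a sterol exporter and liver X receptor target, was above control on each treated array, at 1.05 with aof2 siRNA, 0.63 with rfk siRNA and 0.63 with tranylcypromine, from a dim control signal of 119. The 5 measured genes of that receptor list had medians of 0.25, 0.01 and 0.46, and Lpl stood lowest with aof2 siRNA and tranylcypromine, at -0.43 and -0.47. In the list of sterol storage and oxysterol genes, Hsd3b7 was at 1.07 with aof2 siRNA, 0.12 with rfk siRNA and 1.28 with tranylcypromine, and Cyp7b1 at 1.08, 0.59 and 0.36, and both encode enzymes that break down oxysterols. Of 12 sterol carriers and lipoprotein receptors 10 were above control with tranylcypromine, with a median of 0.16, beside 48% of compared genes above control. The sterol carrier gene Stard5 stood at 0.70 with aof2 siRNA, 0.51 with rfk siRNA and 0.82 with tranylcypromine.

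**Figure D4:**
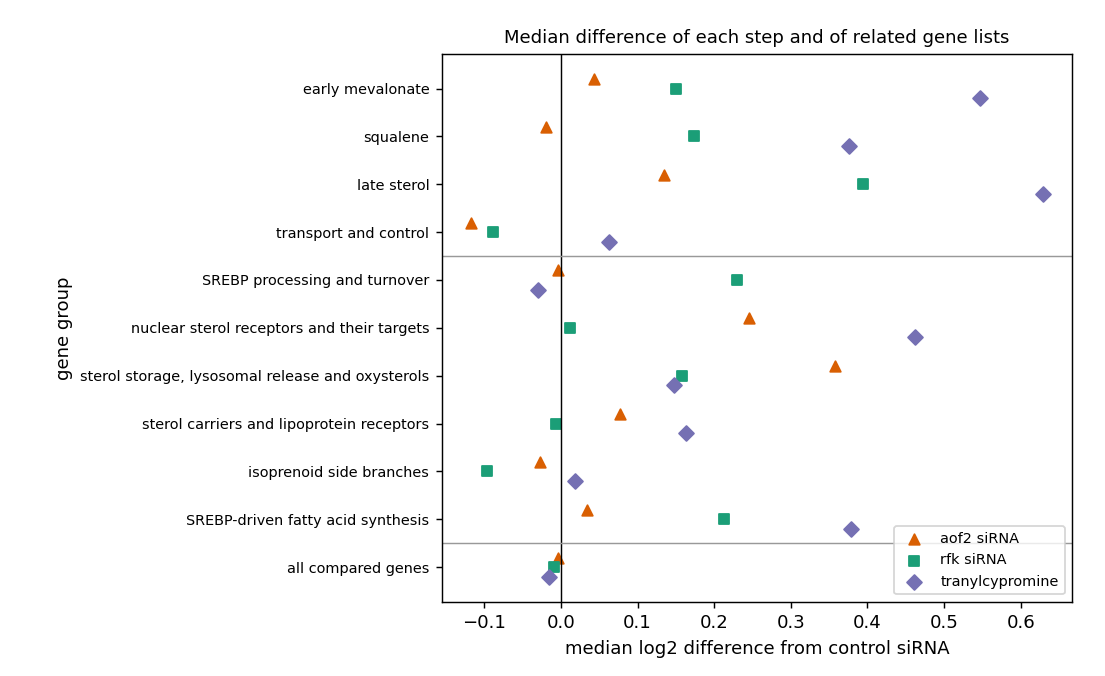
Median log2 difference from control siRNA of the 4 steps (top), of 6 related gene lists (middle) and of all 10788 compared genes (bottom), with 1 symbol per treated array. The late sterol step has the medians of 0.13 (aof2 siRNA), 0.39 (rfk siRNA) and 0.63 (tranylcypromine), while all compared genes lie near 0.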

How the data were processed

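Total RNA, 250 ng per culture, was labelled with biotin and each culture hybridised to 1 Affymetrix array with 45101 probe sets. The values deposited by the authors are MAS5 signals, a linear intensity per probe set, per the submitters' processing notes. Its version is not given in those notes. The trimmed mean was 500.003 on each array, so the authors had scaled the deposited intensities array by array, which hides any difference in cellular RNA content.

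Log2 values were used without an offset. Names came from the platform annotation (34958 probe sets with 1 symbol, 932 with several, which named no gene, and 9211 unnamed here). Each of 18194 genes was represented by its probe set of highest mean log2 signal, and 10788 genes with a geometric mean of at least 50.9, the median over probe sets, were compared. All members are named, and of other lists the highest and lowest genes, with further ones chosen after their values were seen. Members and lists were chosen with earlier results of these data known. Steps were tested on simulated data. Promoter windows came from RefSeq, GRCm38.p6. Python 3.11.15, NumPy 2.4.6, pandas 2.3.3 and matplotlib 3.10.9 were used. Alternatives are given at the end.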

Additional observations from a re-analysis of the deposited data

How the results depend on the processing

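With 1 array per group the limits are the single measurements, the shared control array and the single probe sets of 9 members. Among these are Tm7sf2, Ebp, Dhcr7, Pmvk and Insig1. No paired analysis was possible because each group has 1 array. A median counted as moved when it changed by more than 0.118, the largest SD of the hybridisation controls in a comparison, and a count when it changed by more than 1.5-fold. Of 334 recomputed medians and counts 302 did not move, though 7 of these were medians near 0 whose sign differed, among them the aof2 siRNA median over all members, at -0.06 with centring on the median and -0.02 without probe set IDs ending in _s_at, _x_at or _a_at. Set against the 3 other arrays' mean, the aof2 siRNA medians turned negative for all members (-0.19), early mevalonate (-0.20) and late sterol genes (-0.20), the squalene median was -0.20, and Tm7sf2 (-0.22) and Dhcr7 (-0.0927) turned too. With that reference 0 members were 1.5-fold higher with either siRNA, the rfk siRNA medians were -0.0731 for early mevalonate and 0.11 for late sterol genes, and the late sterol median with tranylcypromine was 0.50. With the mean of all probe sets, the transport and control medians were 0.0242 (aof2 siRNA), -0.29 (rfk siRNA) and -0.16 (rfk siRNA against aof2 siRNA), early mevalonate with rfk siRNA was 0.0284, squalene with tranylcypromine was 0.54 (0.31 against rfk siRNA), 1 member was 1.5-fold lower with aof2 siRNA, 2 were lower with rfk siRNA against aof2 siRNA, and 8 were higher with tranylcypromine against rfk siRNA. Without those probe sets, the median over members with tranylcypromine was 0.26 and late sterol with aof2 siRNA 0.29, 1 member was lower with rfk siRNA and 1 with tranylcypromine against rfk siRNA, and with rfk siRNA against aof2 siRNA 1 was higher and 0 lower. Centring on the median, or an offset of 16, left 1 member higher with aof2 siRNA. At 2-fold, 0 members were higher with aof2 siRNA, 0 higher and 1 lower with rfk siRNA, 3 higher with tranylcypromine, and 1 higher with tranylcypromine against each siRNA. All probe sets of Scarb1, and the only one of Pmvk, have IDs with the endings left out. Both genes were therefore absent from that setting, and its lower counts with rfk siRNA do not include Scarb1. The mean of all probe sets takes in probe sets below the filter, among them dim ones of Fdps, Fdft1 and Scap. Beyond this, the cause of these changes was not tested. Quantile normalization and the stricter filter on signal moved 0 of these medians and counts. All 28 named members passed the main filter, so leaving the filter out kept the same members and could move no value. The values of that setting are counted among the 302 and say nothing on robustness.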
